A study of Caenorhabditis elegans with 2 samples.

Results

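The members described here are 6 microRNA genes of the heterochronic pathway of Caenorhabditis elegans, lin-4, let-7, mir-48, mir-84, mir-237 and mir-241, chosen by name. All 6 were found among the 261 annotated microRNA genes of the nuclear genome, which leaves 255 other microRNA genes for comparison. The data are chromatin immunoprecipitation with sequencing (ChIP-seq) of the nuclear hormone receptor NHR-85, a relative of the mammalian clock repressor Rev-Erb. There was 1 group of 2 biological replicates of whole hermaphrodites of strain OP539, which carries the allele unc-119(tm4063) on chromosome III and the integrated transgene wgIs539. The transgene makes NHR-85 with a C-terminal GFP-FLAG tag, and the precipitation used an antibody to GFP per the description, while the antibody label itself reads nhr-85. Larvae were of the first stage (L1), synchronized by starvation after bleaching, and were taken 6 h later. The labels used here do not say whether they were fed. No second condition, untagged strain or other GFP fusion was analysed here, so a peak that any GFP precipitation would give cannot be told apart from one of NHR-85, and whole animals give no cell type for a peak.

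Heterochronic genes set the order of cell fates in the larval skin and other tissues. The microRNAs act in this pathway as switches, each pairing through its seed, bases 2 to 8 of the mature strand, with sites in messenger RNAs of early-acting genes. lin-4 lowers the proteins LIN-14 and LIN-28 as larvae leave the first stage, mir-48, mir-84 and mir-241 act together on hbl-1 in the stages that follow, and let-7 lowers LIN-41 before adulthood. mir-237 has the seed of lin-4, and its part in timing is less well described. The mature 5′ arms of the members, read from the WBcel235 genome at the annotated positions, are shown because the seed, in capitals, sorts them into 2 families:
lin-4: uCCCUGAGaccucaaguguga
mir-237: uCCCUGAGaauucucgaacagcu
let-7: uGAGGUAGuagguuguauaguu
mir-84: uGAGGUAGuauguaauauuguaga
mir-48: uGAGGUAGgcucaguagaugcga
mir-241: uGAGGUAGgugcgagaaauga

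lin-4 and mir-237 share the seed CCCUGAG and had the same base at 12 of 21 positions counted from the 5′ end. The other members share the seed GAGGUAG. Within that family the closest sequences were those of let-7 and mir-84, with 17 of 22 positions the same, and those of mir-48 and mir-241, with 14 of 21.

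A peak is a stretch of DNA where the precipitated reads pile up, and its summit is the highest point. The list filtered by the irreproducible discovery rate (IDR), which keeps peaks that rank alike in both replicates, holds 2404 distinct intervals, and these are the strongest of the 8389 intervals called on the pooled reads. The replicate lists hold 8092 and 13289 intervals. Of the 2404 IDR intervals, 2403 overlapped a peak in both replicates. Signals are the peak caller's own values and are compared only within a list, where rank 1 is the strongest peak. Read numbers are not in the lists, so the depth is unknown and a missing peak means only that none was called at this depth. Distances run from the summit to the 5′ end of the microRNA hairpin, and upstream is on the strand of the microRNA.

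The promoter window was taken as the bases between 1000 bp before and 200 bp after the hairpin 5′ end. No member had an IDR summit in it, so the count was 0 of 6. Of the other microRNA genes, 24 of 255 (9.41%) had one. The hairpin 5′ end need not be the start of transcription. For let-7 the longest annotated transcript starts 1050 bp further upstream, and for the other members no earlier start of their own is annotated. Promoters of the primary transcripts may therefore lie outside this window. Within 20 kb, 5 of 6 members had at least 1 IDR summit, and mir-84 had none. The background for this wider window is high, since 158 of 255 other microRNA genes (62%) also had an IDR summit within 20 kb. A count of 5 of 6 is therefore read as a list of where the peaks lie and not as a result about the set, also because mir-48 and mir-241 are neighbours and share their peaks. The nearest IDR summit of let-7 was 2937 bp away, that of mir-237 5103 bp, that of mir-48 8546 bp, that of mir-241 10320 bp, that of lin-4 16126 bp and that of mir-84 34111 bp. The median was 9.433 kb for the members and 13.975 kb for the other microRNA genes. Between 20.4% (let-7) and 76.1% (mir-84) of the other microRNA genes had an IDR summit nearer than the member did, so the members lay in the middle of the range.

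**Figure D1:**
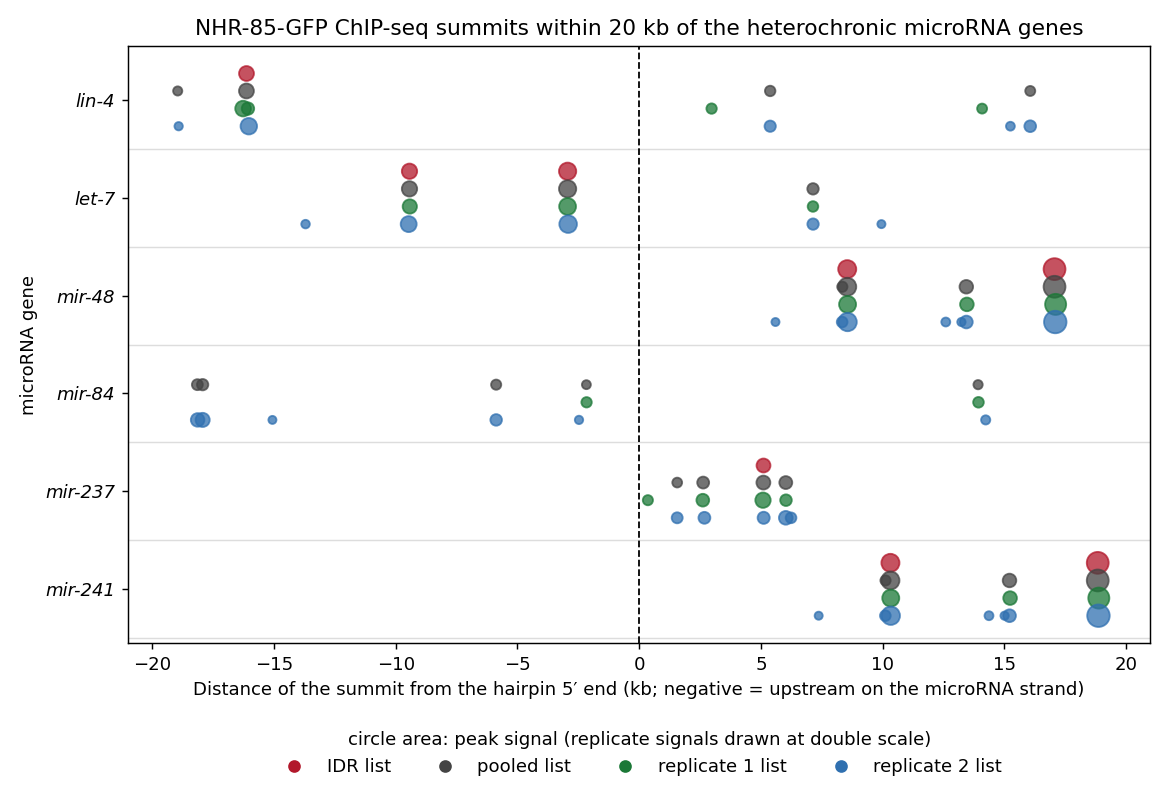
Summits within 20 kb of each hairpin 5′ end (x axis, kb; negative is upstream), in rows by microRNA gene and in 4 colours by peak list, with circle area in proportion to the signal within a list. The 2 IDR summits of let-7 lie upstream at 2.937 and 9.43 kb, those of mir-48 and mir-241 are the same 2 sites downstream, and mir-84 has none.

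The 8 pairs of a member and an IDR summit came from 6 distinct summits, and all 6 lay in the promoter of a protein-coding gene. The summits lay from 325 bp upstream to 18 bp downstream of the nearest coding start. Over the whole IDR list, 55% of the 2404 summits were in a protein-coding promoter (the same window around any coding transcript start), and of the 213 IDR summits within 20 kb of another microRNA gene, 55.4% were.

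let-7, the founding member of its family, had the closest IDR summit. Its hairpin is on chromosome X (14744173 to 14744271, minus strand), outside any protein-coding gene, and its longest annotated primary transcript starts 1050 bp further upstream. The IDR summit 2937 bp upstream of the hairpin was 1887 bp upstream of that start and 95 bp upstream of C05G5.2, a coding gene on the opposite strand. No coding gene starts between this summit and the let-7 hairpin. The peak had signals of 72.9 in replicate 1 and 79.4 in replicate 2, with ranks 1419 of 8092 and 1253 of 13289, and 153 in the pooled list at rank 1306. Its pooled −log10 q-value was 3.51, the ceiling of that list, which the stronger peaks at ranks 606 and 1139 near mir-48 also had. The replicate summits lay 1 bp and 22 bp from the pooled one. Of the peaks in each list, 17.5% were stronger in replicate 1 and 9.42% in replicate 2.

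A further IDR summit lay 9430 bp upstream of let-7 and 325 bp upstream of sucl-1, a gene for a subunit of the mitochondrial succinyl-CoA ligase. Its signals were 52.3 and 65.2 in replicates 1 and 2, and 120 in the pooled list at rank 1818. Starts of 2 coding genes lie between it and let-7. Outside the IDR list, a summit 7141 bp downstream, in the body of C05G5.1, had signals of 28.8 and 33.1 in the replicates and a pooled −log10 q-value of 1.09. Its ranks were 5744 of 8092 in replicate 1 and 3917 of 13289 in replicate 2, where 71.0% and 29.5% of the peaks were stronger.

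The 3 IDR summits shown here lie in promoters of coding genes. Their labels name the members within 20 kb and do not assign the sites to them. The 101 bases around these summits, the nearest to let-7 and both near mir-48 and mir-241, are given. They are plus strand sequence of WBcel235 with the summit base in capitals, at chrX:14747158-14747258, chrV:14347400-14347500 and chrV:14355913-14356013:
let-7 site at C05G5.2: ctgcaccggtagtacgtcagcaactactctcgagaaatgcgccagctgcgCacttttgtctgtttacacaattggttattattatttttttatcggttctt
mir-48 and mir-241 site at cept-2: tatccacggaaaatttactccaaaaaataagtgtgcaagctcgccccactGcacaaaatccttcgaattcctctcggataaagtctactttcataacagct
mir-48 and mir-241 site at cyn-1: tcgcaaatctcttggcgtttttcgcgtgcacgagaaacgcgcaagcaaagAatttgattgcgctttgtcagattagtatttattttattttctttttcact

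mir-48 and mir-241 are neighbouring genes on the minus strand of chromosome V (hairpins at 14364412 to 14364509 and at 14366188 to 14366283). Their IDR summits were the strongest near any member and both lay downstream of the hairpins. The stronger was 17059 bp downstream of mir-48 and 18833 bp downstream of mir-241, and 316 bp upstream of cept-2, a gene of the choline and ethanolamine phosphotransferase family. It had signals of 114 and 130 in replicates 1 and 2, ranks 696 and 574, and 246 in the pooled list at rank 606. The other was 8546 bp from mir-48 and 10320 bp from mir-241, and 113 bp upstream of cyn-1, a cyclophilin gene. Its signals were 74.2 and 86.8 in replicates 1 and 2, and 167 in the pooled list at rank 1139. Both summits were at the ceiling of −log10 q in each replicate. Starts of 5 coding genes lie between the cept-2 summit and mir-48, and starts of 2 lie between the cyn-1 summit and mir-48.

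Upstream of mir-48 and mir-241 no list held a summit within 20 kb. A downstream summit outside the IDR list lay 636 bp upstream of vha-13, a gene of the vacuolar proton ATPase, with signals of 47.8 and 41.6 in replicates 1 and 2. Its pooled signal of 94.6 at rank 2497 was just under the IDR minimum of 97.2. Another, 88 bp inside cyn-1, was found in replicate 2 at a signal of 29.5, and replicate 1 had no summit within 150 bp of it.

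mir-84 (X, 16022404 to 16022478, minus strand, outside coding genes) was the only member with no IDR summit within 20 kb. Its nearest was 34111 bp upstream, with a pooled signal of 312. The pooled list gave 5 weaker summits within 20 kb, and none had a summit within 150 bp in both replicates. The strongest, 17925 bp upstream of mir-84 and 146 bp upstream of B0395.3, had a signal of 51.4 and rank 2310 in replicate 2 and was absent from replicate 1. Beside it, 363 bp upstream of the same gene, a summit of signal 47.2 was likewise in replicate 2 alone. The nearest pooled summit, 2166 bp upstream of mir-84, had a pooled −log10 q-value of 0.0328 and a signal of 27.7 in replicate 1. Replicate 2 had a summit of signal 18.0 at 2469 bp upstream, 303 bp from the pooled one. The ranks of these were 6342 of 8092 and 10067 of 13289. Of the others, the summit 5871 bp upstream had 34.4 in replicate 2 alone, and the summit 13919 bp downstream had 29.2 in replicate 1 with the closest replicate 2 summit 313 bp away.

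lin-4, the first microRNA to be found, is on the plus strand of chromosome II (5902254 to 5902347). It lies in an intron of F59G1.4 on the same strand, 6084 bp past the first annotated start of that gene. Its only IDR summit was 16126 bp upstream, 227 bp upstream of a start of rfip-1, a homologue of the Rab11-interacting proteins of membrane trafficking, and inside the body of a longer rfip-1 transcript. The signals were 63.0 in replicate 1, at rank 1714, 69.8 in replicate 2, at rank 1530, and 114 in the pooled list, at rank 1954. In replicate 1 the site was called as a pair of summits, and the weaker had a signal of 39.7 at 16064 bp upstream of lin-4. The replicate 2 summit, at 16029 bp upstream, lay nearer to it than to the stronger one, at 16264 bp. Taken from the stronger summits, the replicate positions differed more than at the other sites. They lay 138 bp to one side and 97 bp to the other side of the pooled summit. No list held a summit between the first F59G1.4 start and the lin-4 hairpin, or anywhere else from 16029 bp upstream of lin-4 up to the hairpin.

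Downstream of lin-4 the replicates held different peaks. A summit 5382 bp downstream, 180 bp upstream of vps-35, a retromer gene, had a signal of 32.8 in replicate 2 at rank 3949 of 13289 and a pooled −log10 q-value of 0.557, and was absent from replicate 1. A summit 16062 bp downstream, in frh-1, the frataxin gene, and 331 bp upstream of the phosphatase gene ptp-2, had 35.3 in replicate 2 at rank 3622 and was also absent from replicate 1. In replicate 1 the summit closest to lin-4 was 2976 bp downstream, in tsp-18, at a signal of 27.7 and rank 6332, and neither the pooled list nor replicate 2 held it.

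mir-237 (X, 8154084 to 8154182, plus strand, outside coding genes) lies in a cluster of tRNA genes, with 9 within 5 kb of the hairpin. Its IDR summit was 5103 bp downstream and 18 bp past the start of hil-3, a linker histone gene. The signals were 60.3 in replicate 1 and 37.6 in replicate 2, with ranks 1825 of 8092 and 3386 of 13289. In the pooled list it had 99.3 at rank 2332, near the end of the 2404 IDR peaks. Of the peaks in each list, 22.5% were stronger in replicate 1 and 25.5% in replicate 2. The next pooled summit, 938 bp past the hil-3 start, had the opposite order, with 34.5 in replicate 1 and 48.4 in replicate 2, and a pooled signal of 85.6.

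The summits nearest to the mir-237 hairpin lay at tRNA genes. One at 2630 bp downstream of the hairpin, 7 bp from a tRNA gene, had signals of 41.6 and 36.3 in replicates 1 and 2 and 73.0 in the pooled list, above the list medians of 34.4, 22.4 and 60.9. One at 1564 bp downstream, 104 bp from a tRNA gene, had 31.0 in replicate 2 and no partner in replicate 1 within 150 bp. In replicate 1 alone, a summit of signal 26.5 and rank 7034 lay 360 bp downstream of the hairpin 5′ end and 1 bp from a tRNA gene. Over all pooled summits, 2.18% were within 200 bp of a tRNA gene. tRNA genes are repeated in the genome, and how reads with several matches were placed is unknown here.

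**Figure D2:**
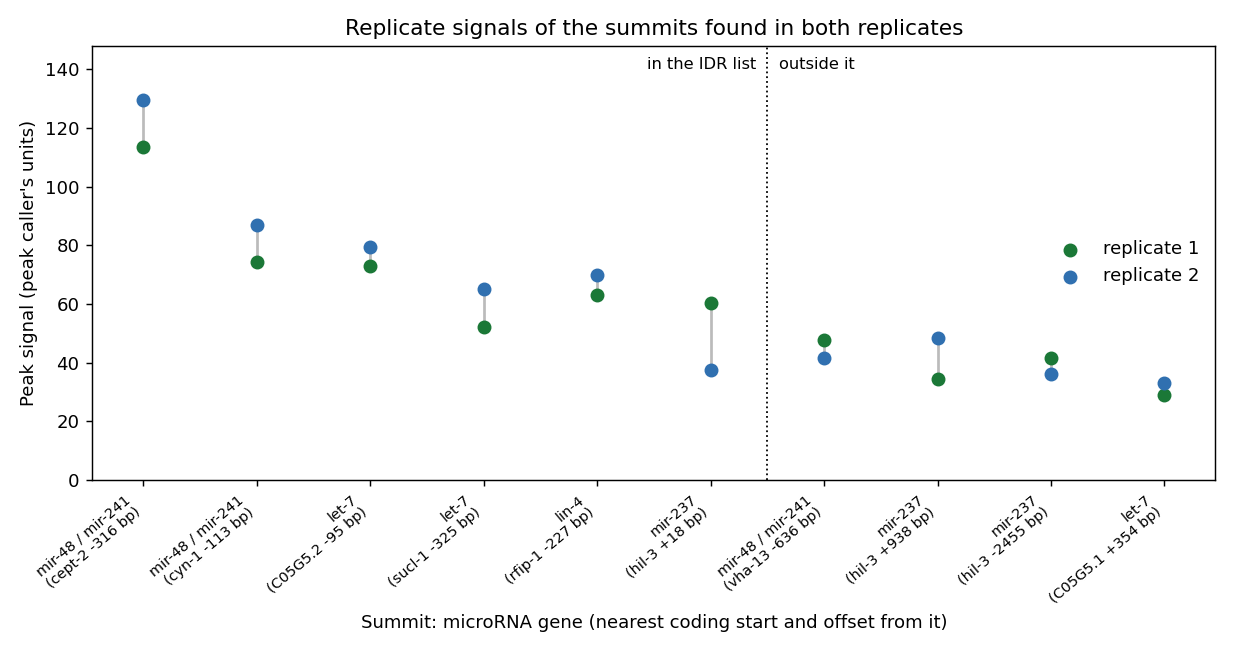
Peak signal (y axis, peak caller's units, each replicate on the scale of its own list) of the 10 summits near a member that had a replicate summit within 150 bp in both replicates, ordered by pooled signal, with the nearest coding start and the offset from it under each. Replicate 1 signals run from 28.8 to 114 and replicate 2 signals from 33.1 to 130, and the hil-3 site shows 60.3 and 37.6.

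Ordered by the strongest signal within 20 kb, the members kept the same order in both replicates down to lin-4. In replicate 1 the values were 114 for mir-48 and mir-241, 72.9 for let-7, 63.0 for lin-4, 60.3 for mir-237 and 29.2 for mir-84. In replicate 2 they were 130 for mir-48 and mir-241, 79.4 for let-7, 69.8 for lin-4, 51.4 for mir-84 and 48.4 for mir-237. mir-84 and mir-237 thus changed places, and in replicate 1 lin-4 and mir-237 were close. Among the 2404 strongest peaks of each replicate alone, 5 of 6 members had a summit within 20 kb, but not the same ones. With replicate 1 the member without one was mir-84, as in the IDR list, and with replicate 2 it was mir-237, whose best rank there was 2487. Of the strongest 1202 IDR peaks, only those at cyn-1 and cept-2 lay near members, so mir-48 and mir-241 alone had one. The share of other microRNA genes is not given here for these peak sets, so these counts are not read as results about the members.

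**Figure D3:**
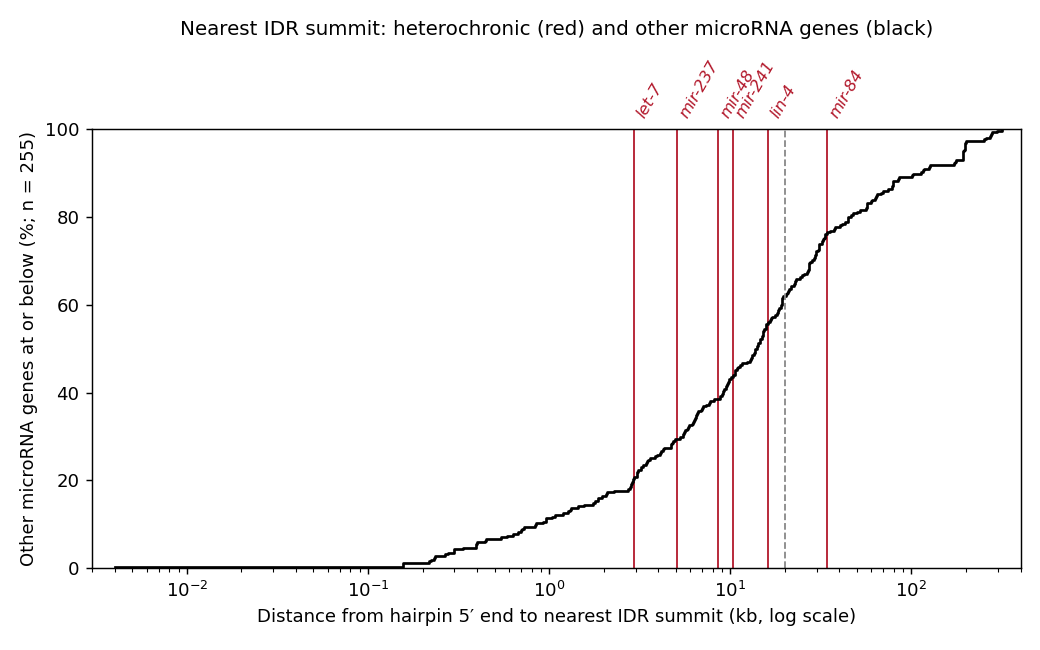
Cumulative share of the 255 other microRNA genes (black line, y axis in percent) whose nearest IDR summit lies at or below the distance on the x axis (kb, log scale), with the 6 members as red lines and 20 kb as a dashed line. The members run from 2.937 kb (let-7) to 34.111 kb (mir-84), spread over the middle of the curve.

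Of all 20 distinct pooled summits within 20 kb of a member, 6 were in the IDR list, and these 6 had a replicate summit within 150 bp in both replicates. Of the 14 outside it, 4 did. The summits in 1 replicate alone were 8 for replicate 2, which has the longer list, and 2 for replicate 1. The share of all pooled summits by this 150 bp measure is not given here, so these counts are not read as results about the members. By overlap of intervals, a looser measure, 5863 of all 8389 pooled intervals overlapped a peak in both replicates. Of the 2404 IDR intervals, 2403 did. Taken by themselves, the lists of replicates 1 and 2 held 16 and 28 distinct summits within 20 kb of a member, with signals from 25.7 to 114 and from 16.7 to 130.

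Most of the summits not yet given came from replicate 2, whose median signal over all peaks was 22.4. Near let-7, replicate 2 had a summit of signal 18.9 at 13699 bp upstream and one of 17.0 at 9950 bp downstream. Near mir-48 and mir-241 it had 3 more, with signals of 16.8, 20.6 and 17.8 at 5599, 12593 and 13235 bp downstream of mir-48. The first of these was the closest summit to mir-48 in any list, at rank 11579 of 13289. Near mir-84 replicate 2 had one of 16.7 at 15059 bp upstream, and near mir-237 one of 29.6 at 6238 bp downstream. Near lin-4 it had one of 18.0 at 18910 bp upstream, which the pooled list also held at 43.4, and one of 20.2 at 15247 bp downstream. Replicate 1 alone had one of 25.7 at 14085 bp downstream of lin-4.

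Likeness was taken from the pair of highest signals within 20 kb in replicates 1 and 2, over 2 samples. The 223 candidates were other microRNA genes over 20 kb from every member, with a summit within 20 kb in both replicates. The genes most like mir-48 and mir-241 were mir-230 and mir-791, both with 114 and 131. Those most like let-7 were mir-51 and mir-53, with 69.7 and 80.8, and those most like lin-4 were mir-2207 and mir-8212, with 62.1 and 67.3. In each of these pairs both genes had the same signals, so a pair counts as a single match. The genes most like mir-237 were mir-4806 and mir-392, and those most like mir-84 were mir-8207 and mir-4926. The distance of the pairs on the log2 scale ran from 0.0148 for mir-230 to 0.315 for mir-4926. The nearest IDR summit was 217 bp from mir-230 and 1550 bp from mir-791, 1735 bp from mir-51 and 156 bp from mir-53, and 19095 bp from mir-2207 and 15823 bp from mir-8212. It was 4686 bp from mir-4806 and 13231 bp from mir-392, and 29577 bp from mir-8207 and 24103 bp from mir-4926.

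The 101-base windows around the 6 IDR summits were searched on both strands for 6 short motifs. None of the 6 windows held AGGTCA, the core site of many nuclear receptors, against 6.53% of all 2404 IDR windows. Its longer forms TAGGTCA and TCAAGGTCA always hold it, so their counts of 0 of 6 follow from its absence and add nothing. They were in 1.21% and 0.374% of all IDR windows. The GATA site TGATAA was in 0 of 6 against 8.49%, the E-box CACGTG in 0 of 6 against 8.44% and GAGAGA in 0 of 6 against 25.5%. With these shares, 0 of 6 says only that the letters are not in these windows.

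Protein genes of the same pathway were read with the same promoter window, and 8.08% of 19973 protein-coding genes had an IDR summit in a promoter. Of the 6 listed targets of these microRNAs, 2 had one. They were lin-14, the main target of lin-4, and lin-28. The lin-14 summit had signals of 105 and 83.5 in replicates 1 and 2 at 180 bp upstream of a start. For lin-28 there were 2 such summits, and the stronger had 140 and 153 at 49 bp upstream of a start. lin-41, hbl-1, daf-12 and lin-42 had none. Of the 8 listed regulators of the members, lin-28, the GATA factor gene elt-1 and the receptor gene nhr-23 had one. elt-1 had 201 and 170 in replicates 1 and 2, and nhr-23 had 74.8 and 57.2. nhr-85, lin-42, daf-12, blmp-1 and hbl-1 had none. Neither share was tested against 8.08%. These lin-14 and lin-28 signals were higher in both replicates than the 63.0 and 69.8 of the only IDR summit within 20 kb of lin-4, their shared regulator. The sites are unlike, since that summit lies 16126 bp from lin-4 at a start of rfip-1, while the others are in promoters of lin-14 and lin-28.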

How the data were processed

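The 4 peak lists used are narrowPeak tables on ce11, for each replicate, the pooled reads and the IDR filter. Per the file lists deposited with the samples, each peak list was derived from the replicate alignments and 1 further file, and the IDR list from the other 3 lists. The labels name a possible control experiment, which was not analysed here. No source used here gives the aligner, the peak caller or its thresholds. The deposited signal is the peak caller's value, with its scaling not stated, and the deposited −log10 q-value has a ceiling. The 5 ce10 lists were not used, since the genome and annotation (Ensembl release 115, RefSeq names) are WBcel235, which is ce11.

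Lines with the same interval were reduced to the strongest, and distances taken from the summit to the hairpin 5′ end with Python 3.11.15 and pandas 2.3.3. The same summit meant within 150 bp, a limit chosen after the values were seen. All members are named, with the genes at their IDR summits, at the 2 strongest other summits of each, and on the pathway lists; further summits, tsp-18 and the tRNA genes were added after their values were seen. Members and lists were chosen with earlier results of these data known. No test was run, since there is 1 group and the members are a chosen list. The steps were tested on simulated data. The sequences of 3 of the 6 summit windows are not reported here. Alternatives covered windows, peak sets, each replicate alone, the point that stands for a peak or gene, and the motif window.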

Additional observations from a re-analysis of the deposited data

How the results depend on the processing

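The count of members with an IDR summit within 20 kb, 5 of 6, was 3 at 10 kb, 1 at 5 kb and 0 at 2 kb, and 2 with the strongest 1202 IDR peaks. Of the other microRNA genes, 29.4% had one within 5 kb and 16.5% within 2 kb. Their share is not given here for the other windows and peak sets, so those counts are not read as results about the members. The member count was 6 with the pooled list and with peaks that overlapped a peak of both replicates. It was 5 with the 2404 strongest peaks of either replicate alone, without mir-84 in replicate 1 and without mir-237 in replicate 2. With each full replicate list it was 6. It was also 5 with peak edges or midpoints, and from the longest annotated transcript start. That start differs from the hairpin 5′ end for let-7 alone, so this setting could change only let-7. The promoter count of 0 was 0 for 500 and 2000 bp, for the strongest 1202, the pooled and the shared peaks, and for each replicate alone. Chosen after seeing the data, a promoter of 3000 bp gave 1, and one of 2000 bp from the longest annotated transcript start gave 1, in both cases let-7 through the summit at C05G5.2. From that start with 1000 bp it was 0. Without replicate 1 or replicate 2, the rank of the strongest summit ran from 1530 to 1714 for lin-4 (1954 in the pooled list) and from 574 to 696 for mir-48 and mir-241 (606). That of mir-84 was 2310 in replicate 2 (3779 pooled), and replicate 1 lacked it. With 100 bp to each side of the summit, GAGAGA was in 1 window of 6, against 40.7% of all IDR windows of that width, and the other motifs stayed at 0. Other microRNA genes taken as 192 loci had a summit in 59.4%. The cause of these changes was not tested beyond the change of window or list itself. Depth is unknown, so weak and missing peaks cannot be told apart by it. No paired analysis was possible because there is 1 group.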

Other observations

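Among the other microRNA genes, position inside a host gene on the same strand, as for lin-4, was set beside position outside coding genes. Of the 74 others in a protein-coding gene on the same strand, 49 (66.2%) had an IDR summit within 20 kb and 15 (20.3%) within 2 kb. Of the 149 outside coding genes, 86 (57.7%) had one within 20 kb and 20 (13.4%) within 2 kb. Those in a coding gene on the opposite strand alone are in neither group, so the small differences are not tied to the strand of the host. Of the 71 others on X, the chromosome of let-7, mir-84 and mir-237, 38 (53.5%) had one within 20 kb. By length, X had the most IDR summits, with 1.17 per 40 kb against 0.797 (V) to 1.09 (III) on the other chromosomes. The share of 53.5% therefore does not mean that X has few peaks. These shares are descriptions, and microRNA genes in clusters share their peaks.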
